A study of Mus musculus with 23 samples.

Results

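The FoxO genes of the mouse, Foxo1, Foxo3, Foxo4 and Foxo6, and the long noncoding RNA gene beside Foxo6, Foxo6os, were followed in quadriceps muscle of mice treated with corticosterone. They were found by symbol among the 55573 Ensembl gene IDs of the count table, and all 5 passed the filter on low counts that left 13049 genes for testing. RNA was sequenced from whole quadriceps of 23 C57Bl6 mice (C57BL/6J in the study's methods) of 8 to 10 weeks. Treated mice carried a pellet of 50 mg corticosterone, the main glucocorticoid of mice, and 50 mg cholesterol under the skin for 14 days, and vehicle mice carried a pellet of 100 mg cholesterol. All mice were fasted for 5 h before the muscle was taken. There were 6 vehicle males, 6 corticosterone males, 6 vehicle females and 5 corticosterone females. Each mouse carries a letter for sex and its number, such as M1 or F2.

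FoxO proteins are transcription factors of the forkhead family that sit under insulin signaling. When insulin or IGF1 activates PI3K and Akt, Akt phosphorylates FoxO proteins, which are then held in the cytoplasm by 14-3-3 proteins. When the signal is low they enter the nucleus, and in skeletal muscle FoxO1 and FoxO3 are known for switching on genes of muscle atrophy, such as the ubiquitin ligases Fbxo32 (atrogin-1) and Trim63 (MuRF1), and genes of autophagy. Glucocorticoids act through the glucocorticoid receptor, which binds DNA and is known to raise FoxO1 transcripts in muscle.

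The genes lie apart in the genome (build GRCm38, mm10). Foxo1 (ENSMUSG00000044167) spans chr3:52268336-52353221 on the plus strand, Foxo3 (ENSMUSG00000048756) chr10:42181841-42276755 on the minus strand, and Foxo4 (ENSMUSG00000042903), on the X chromosome, chrX:101254528-101260873 on the plus strand. Foxo6 (ENSMUSG00000052135) at chr4:120267079-120287349 on the minus strand and Foxo6os (ENSMUSG00000084929) at chr4:120291350-120303892 on the plus strand are neighbours that point away from each other, with 4000 bases between the annotated ends. Foxo6os is annotated as an antisense RNA, but no base of the annotated genes overlaps, and reads were counted by strand.

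RefSeq promoter sequences (GRCm38.p6) were at hand for 3 of the 5 genes, and are shown because all 3 genes changed with corticosterone: the stretch before the start of Foxo1 (chr3:52268087-52268335, plus strand), of Foxo3 (chr10:42276756-42276945, minus strand) and of Foxo6os (chr4:120290883-120291132, plus strand). Each is written 5′ to 3′ on the strand of its gene, and capitals mark the letters AGAACA, a half-site of the glucocorticoid response element. The windows are set on RefSeq starts, and that of Foxo6os ends 217 bases before the start used above.
Foxo1: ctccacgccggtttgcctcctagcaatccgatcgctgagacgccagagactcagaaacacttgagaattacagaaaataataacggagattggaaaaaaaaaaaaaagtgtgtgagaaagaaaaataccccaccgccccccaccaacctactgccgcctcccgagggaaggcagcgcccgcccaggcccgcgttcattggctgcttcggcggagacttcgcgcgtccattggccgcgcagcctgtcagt
Foxo3: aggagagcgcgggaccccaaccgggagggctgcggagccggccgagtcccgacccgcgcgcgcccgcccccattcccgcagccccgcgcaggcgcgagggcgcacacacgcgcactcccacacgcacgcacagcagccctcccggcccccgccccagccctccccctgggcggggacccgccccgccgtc
Foxo6os: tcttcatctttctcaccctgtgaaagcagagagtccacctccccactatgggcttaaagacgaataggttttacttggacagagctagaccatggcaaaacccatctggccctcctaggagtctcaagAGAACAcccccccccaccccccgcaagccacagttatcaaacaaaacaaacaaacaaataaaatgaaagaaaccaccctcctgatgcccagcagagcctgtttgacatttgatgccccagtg
The full element, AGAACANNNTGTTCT, was searched on both strands and matched none of the 3 windows, and it matched 0.00913% of 32851 RefSeq promoters. The half-site AGAACA, which is part of the full element, had 1 match, in the Foxo6os window, and was found in 16.1% of all promoters over windows of 250 bases. A FoxO core site (GTAAACA, in 3.17% of promoters) and a TATA box (TATAAA, in 12.4%) had no match in the 3 windows. The Foxo3 window held 81.6% G and C bases, more than 99.3% of all promoters, while the Foxo1 window held 55.8% and the Foxo6os window 49.2%, against a median of 52.4%. A match of letters shows no binding, and elements outside these windows were not searched.

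Gene counts ranged from 20904150 to 21984477 per mouse. The 6 muscle fiber markers (Acta1, Ckm, Myh4, Ttn, Des, Mylpf) summed to between 60190 and 180200 CPM (reads of a gene scaled by library size), and none was at 0 in any mouse. The 6 hepatocyte markers summed to 2420 CPM in M8 and 2339 CPM in F10, and to over 1000 CPM also in M9 (1422), M12 (1414) and F6 (1072), with a median of 105.0 CPM in vehicle males. By edgeR, DESeq2 and limma-voom 0 of the 6 passed in either sex, with 0 in males and 1 in females at an unadjusted p under 0.05, and none was at 0. Erythrocyte markers rose with corticosterone, 4 of 5 in each sex, from 103.9 to 204.3 CPM in vehicle males to 189.3 to 673.9 CPM in treated males, and from 84.9 to 397.9 CPM in vehicle females to 293.1 to 602.0 CPM in treated females, and none was at 0. The 8 adipocyte markers summed to between 274.4 CPM (F8) and 6959 CPM (F6) in treated females against 286.0 to 2611 CPM in vehicle females, and Lep, at 0 in 1 mouse, was the 1 that passed by edgeR, with 7 of 8 at an unadjusted p under 0.05 and 3 of 8 past the threshold by DESeq2. Endothelial markers summed to 224.2 to 361.6 CPM in vehicle males and 202.9 to 293.2 CPM in treated males, with 1 of 5, Tek, lower, and to 195.0 to 429.6 CPM and 256.1 to 367.2 CPM in vehicle and treated females, with none past the threshold. These calls are by edgeR, and DESeq2 and limma-voom each gave 2 lower in males. At an unadjusted p under 0.05, 3 were lower in males and 1 was higher in females. Macrophage markers summed to 21.8 to 72.5 CPM in vehicle males, 23.1 to 35.8 CPM in treated males, 33.5 to 64.1 CPM in vehicle females and 31.4 to 92.4 CPM in treated females. By edgeR none of the 4 passed with corticosterone in either sex. DESeq2 gave 1 lower in males and 1 higher in females, and limma-voom 1 higher in females. At an unadjusted p under 0.05, 3 macrophage markers were lower in males and 1 was higher in females. Between treated males and females, 3 of the 4 (Mrc1, Cd68 and Adgre1) and 2 of the 8 adipocyte markers (Fabp4 and Pparg) were lower in males, with median log2 differences of -1.28 and -2.80. In that comparison 23.3% of all genes passed in either direction, and 2 of 8 is near that share. The muscle fiber markers had a median of 0.48, with 1 of 6, Des, higher in males. The part of these markers in the results was not tested.

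In males, Foxo1, Foxo3 and Foxo4 rose with corticosterone and Foxo6 and Foxo6os fell. In females, Foxo1 and Foxo3 rose, Foxo6 and Foxo6os fell, and Foxo4 did not pass the test. The log2 fold change (log2FC) was larger in males for Foxo1, Foxo3 and Foxo4, and the difference between the sexes passed the test for Foxo3. The calls are at an adjusted p below 0.01 by edgeR's quasi-likelihood test over all 13049 genes. By this rule 5 of 5 genes changed in males, where 26.3% of all genes did (13.2% higher and 13.1% lower), and 4 of 5 in females, where 13.4% did (7.40% higher). In males no treated mouse overlapped the vehicle mice for any of the 5 genes. Among all genes 10.8% were higher and 11.1% were lower without overlap in males, and 3.38% and 4.34% in females, where Foxo6 and Foxo6os had no overlap. Without M8 and F10 the 5 male and 4 female calls stood, with log2FC values in males of 2.64 for Foxo1, 1.504 for Foxo3, 0.54 for Foxo4, -2.41 for Foxo6 and -3.79 for Foxo6os, and in females of 1.74 for Foxo1, 0.58 for Foxo3, -2.60 for Foxo6 and -2.49 for Foxo6os. In whole muscle, fewer cells of a type and less RNA per cell cannot be told apart.

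**Figure D1:**
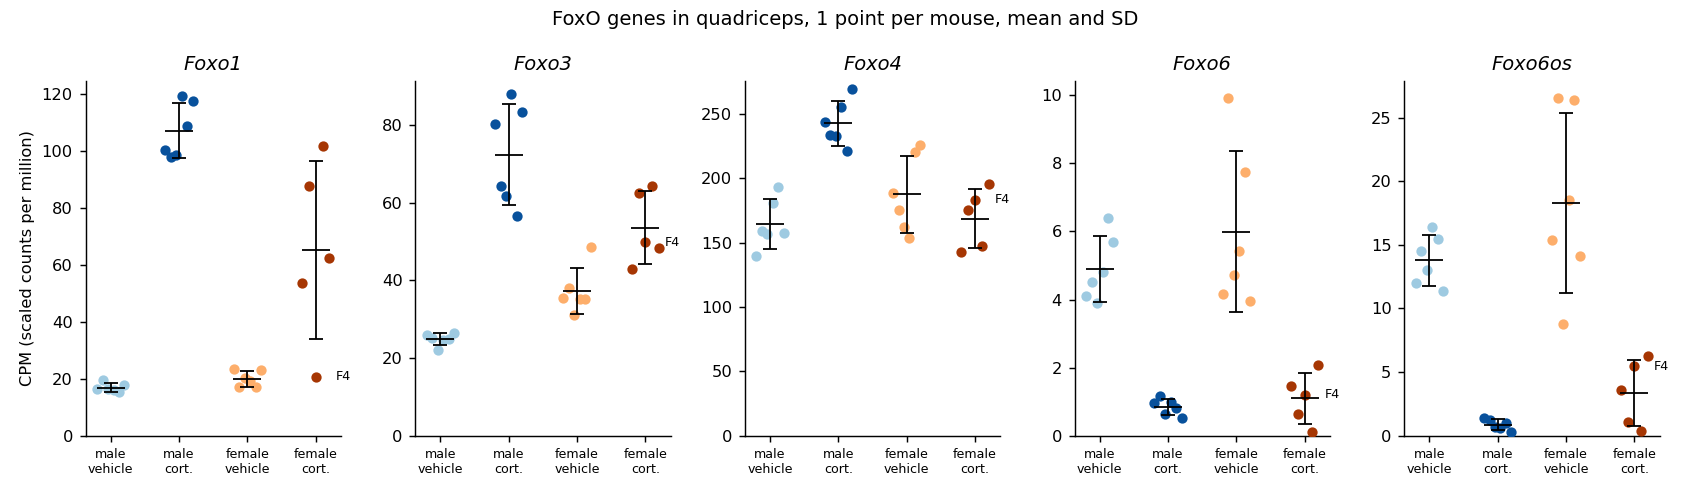
CPM of each gene (vertical axis from 0, a different range in each panel) in the 4 groups, 1 point per mouse, with the group mean and SD as bars. Treated males lie beyond all vehicle males in every panel, and the treated female F4 lies among the vehicle females for Foxo1.

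Foxo1, the FoxO factor of the insulin response and of atrophy genes, had its lowest, median and highest level in vehicle males at 15.4, 16.3 and 19.6 CPM and in corticosterone males at 97.9, 104.4 and 119.2 CPM. The lowest treated male was thus far above the highest vehicle male. The mean moved from 16.9 ± 1.52 to 106.9 ± 9.61 CPM (SD, n = 6 each), a 6.32-fold rise (log2FC 2.66, SE 0.23, edgeR adjusted p = 5.11e-08), which ranked 60 from the top among all 13049 genes. Vehicle females had 17.0, 19.7 and 23.5 CPM as lowest, median and highest. Treated females had 101.5 CPM (F6), 87.5 CPM (F2), 62.4 CPM (F8), 53.7 CPM (F10) and 20.8 CPM (F4). Of the 5 treated females, 4 lay above all vehicle females and F4 lay within their range. The female mean moved from 20.04 ± 2.82 (SD, n = 6) to 65.2 ± 31.3 CPM (SD, n = 5), a 3.25-fold rise (log2FC 1.70, SE 0.23, edgeR adjusted p = 3.51e-05). The coefficient of variation among treated females was 48.1%, against 8.99% among treated males.

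Of 13 genes of a glucocorticoid receptor list, F4 lay above all vehicle females for 3 (Fkbp5, Mt1 and Mt2), below them for 2 (Tsc22d3 and Per1) and within their range for 8. Such counts were not made for the other treated females or over all genes, so that they do not set F4 apart. Fkbp5, a co-chaperone of the glucocorticoid receptor and a classical target of it, was at 207.3 CPM in F4 and between 148.8 and 278.1 CPM in the other treated females, against 12.5 to 48.4 CPM in vehicle females. Among those within the range were Sgk1 (68.8 CPM in F4, 58.8 to 214.4 CPM in vehicle females), Glul (387.8 CPM, 269.9 to 596.2 CPM) and Klf15 (49.1 CPM, 44.5 to 64.8 CPM). Foxo3 in F4 was at 49.8 CPM, above all vehicle females, and Foxo6os at 5.44 CPM was below all of them. The summed markers of F4 were the lowest of the treated females for erythrocytes (293.1 CPM) and slow fibers (97.2 CPM) and the highest for muscle fibers (142300 CPM).

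The male rise of Foxo1 exceeded the female rise by 0.96 on the log2 scale (95% interval 0.33 to 1.58, edgeR adjusted p = 0.0506), which missed the threshold. Foxo1 did not differ past the threshold between the sexes with vehicle (log2 male minus female -0.24, edgeR adjusted p = 0.72) or with corticosterone (0.71, edgeR adjusted p = 0.0177). Without F4, the last difference was 0.49 with a narrower error and passed (edgeR adjusted p = 0.00881), as it also did without F6 (0.95, edgeR adjusted p = 0.00414).

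Foxo3, the FoxO factor best known for driving Fbxo32 in wasting muscle, was at 22.1, 25.0 and 26.3 CPM in vehicle males and at 56.6, 72.3 and 88.0 CPM in treated males (lowest, median and highest). These groups lay apart. The mean moved from 24.9 ± 1.49 to 72.4 ± 13.1 CPM (SD, n = 6 each), a 2.91-fold rise (log2FC 1.54, SE 0.12, edgeR adjusted p = 2.09e-08), and by p-value Foxo3 stood at place 11 of all genes in males. Vehicle females were at 31.1, 35.3 and 48.5 CPM, and treated females at 64.3 CPM (F6), 62.6 CPM (F2), 49.8 CPM (F4), 48.2 CPM (F8) and 42.9 CPM (F10). The highest vehicle female, F9, reached above F8 and F10, so that 3 of 5 treated females lay above all vehicle females. The female mean moved from 37.2 ± 5.94 (SD, n = 6) to 53.5 ± 9.39 CPM (SD, n = 5), a 1.44-fold rise (log2FC 0.52, SE 0.13, edgeR adjusted p = 0.00432). This call ended when F6 was left out (0.44, edgeR adjusted p = 0.0222), and also without F1, F2 or F7.

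The response of Foxo3 differed between the sexes by 1.02 on the log2 scale (95% interval 0.67 to 1.36, edgeR adjusted p = 0.00607). Of the 5 genes this was the 1 that passed, among all genes 0.690% did, and by p-value it stood at place 15. Vehicle males were lower than vehicle females (log2 -0.58, SE 0.12, edgeR adjusted p = 0.00919), with no overlap between 6 and 6 mice, where 0.958% of all genes passed in either direction and 0.935% were lower in males without overlap. This call stood at the edge as well, and ended without any 1 of 14 mice (F1, F4, F5, F7, F9, F11, M1, M3, M5, M7, M9, M10, M11 and M12), with log2 values of -0.6 to -0.49 and adjusted p up to 0.0277. With corticosterone the order turned and males were higher in the mean (log2 0.43, SE 0.13), at the edge of the threshold (edgeR adjusted p = 0.0101). The difference in response lay close to the threshold too: without M8 and F10, the mice with the most hepatocyte marker RNA, it was 0.93 (edgeR adjusted p = 0.0212), and leaving out single mice moved it between 0.93 and 1.11 and ended the call for 9 of them (F1, F9, F10, M3, M4, M7, M8, M10 and M11, adjusted p up to 0.0132).

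**Figure D2:**
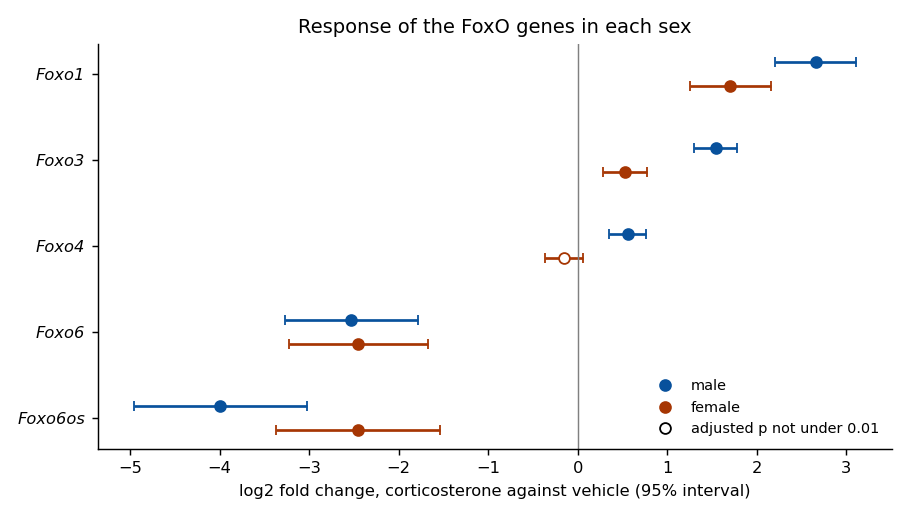
Log2 fold change of each gene, corticosterone against vehicle (horizontal axis), in males (blue) and females (orange), with normal 95% intervals. Filled points passed the adjusted p threshold. The intervals of Foxo1, Foxo3 and Foxo4 do not overlap between the sexes, while the test of the difference itself passed for Foxo3. Those of Foxo6 nearly coincide, and female Foxo4 is the 1 open point, at -0.15.

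Foxo4, the X-linked member, is a FoxO factor under the same control by Akt and is known from studies of muscle and of cell senescence. It was at 139.2, 158.1 and 193.5 CPM in vehicle males and at 221.1, 238.4 and 268.9 CPM in treated males (lowest, median and highest). The treated males lay above all vehicle males, with means of 242.5 ± 17.4 and 164.5 ± 19.5 CPM (SD, n = 6 each) and a 1.47-fold rise (log2FC 0.56, SE 0.11, edgeR adjusted p = 0.000275). Vehicle females were at 153.6, 181.7 and 226.1 CPM, and treated females at 195.4 CPM (F8), 183.3 CPM (F4), 174.9 CPM (F2), 147.0 CPM (F6) and 142.3 CPM (F10). The female groups overlapped, with means of 187.6 ± 29.9 CPM (SD, n = 6) and 168.6 ± 23.1 CPM (SD, n = 5) and a log2FC of -0.15 (95% interval -0.37 to 0.06, edgeR adjusted p = 0.322). The difference between the responses was 0.71 (95% interval 0.41 to 1.01, edgeR adjusted p = 0.0117) and just missed the threshold, while DESeq2 placed it past the threshold (0.73, adjusted p = 0.000373) and limma-voom did too (0.69, adjusted p = 0.00422).

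Among treated mice, Foxo4 was higher in every male than in every female (log2 0.52, SE 0.11, edgeR adjusted p = 0.00121). In that comparison 23.3% of all genes passed in either direction, 2 of the 5 genes here did, and 6.87% of all genes were higher in males without overlap. Without M8 and F10 it was 0.46 and stood at the edge of the threshold (edgeR adjusted p = 0.0106). In the same comparison the macrophage markers had a median of -1.28, the adipocyte markers of -2.80 and the muscle fiber markers of 0.48. F10 and F6, the treated females with the lowest Foxo4, also had the lowest summed fiber markers (60190 and 82190 CPM). The part of these markers in the Foxo4 value was not tested. With vehicle, the sexes did not differ past the threshold (log2 -0.19, 95% interval -0.40 to 0.02, edgeR adjusted p = 0.483).

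Foxo6, a FoxO factor first known from brain, which lacks one of the Akt sites of the others, was the FoxO gene with the fewest reads. Its level was 3.91, 4.66 and 6.41 CPM in vehicle males and 0.530, 0.874 and 1.16 CPM in treated males (lowest, median and highest), or 80 to 134 counts and 12 to 25 counts. The groups lay apart, and the level fell from 4.91 ± 0.965 to 0.846 ± 0.233 CPM (SD, n = 6 each), 5.77-fold (log2FC -2.53, SE 0.38, edgeR adjusted p = 2.34e-05). Vehicle females were at 3.96, 5.08 and 9.93 CPM, and treated females at 2.07 CPM (F8), 1.47 CPM (F10), 1.20 CPM (F4), 0.637 CPM (F2) and 0.121 CPM (F6), the last from 3 counts. All treated females lay below all vehicle females, and the mean fell from 5.99 ± 2.37 (SD, n = 6) to 1.10 ± 0.751 CPM (SD, n = 5), 5.47-fold (log2FC -2.45, SE 0.39, edgeR adjusted p = 0.000177). The 2 responses differed by -0.08 (95% interval -1.09 to 0.94, edgeR adjusted p = 0.93), and the interval leaves room for a difference in either direction.

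Foxo6os, a long noncoding RNA of which little more than its place beside Foxo6 is assured, was at 11.4, 13.8 and 16.4 CPM in vehicle males and 0.265, 0.824 and 1.42 CPM in treated males (lowest, median and highest), or 242 to 326 counts and 6 to 30 counts. It fell from 13.8 ± 1.98 to 0.858 ± 0.429 CPM (SD, n = 6 each), 15.9-fold (log2FC -3.99, SE 0.49, edgeR adjusted p = 2.47e-06), and ranked 16 from the bottom of all genes. Vehicle females were at 8.79, 17.0 and 26.6 CPM, and treated females at 6.30 CPM (F8), 5.44 CPM (F4), 3.58 CPM (F10), 1.09 CPM (F2) and 0.364 CPM (F6). The female groups lay apart as well. The female mean fell from 18.3 ± 7.06 (SD, n = 6) to 3.36 ± 2.61 CPM (SD, n = 5), 5.48-fold (log2FC -2.45, SE 0.47, edgeR adjusted p = 0.00078), which ranked 28 from the bottom in females, with Foxo6 next to it at 29.

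The difference between the responses of Foxo6os was -1.54 (95% interval -2.80 to -0.28, edgeR adjusted p = 0.106) and missed the threshold. Among treated mice, Foxo6os was lower in males than in females (log2 -1.95, SE 0.50, edgeR adjusted p = 0.0044), but the groups overlapped, since F6 and F2 lay within the male range. The part of the macrophage and adipocyte markers, lower in treated males, was not tested here either. This call ended without any 1 of F4, F8, F10, M2, M4 and M8 (from -1.90 to -1.59, edgeR adjusted p up to 0.0152), without M8 and F10 (-1.71, edgeR adjusted p = 0.0272) and by limma-voom with sample weights (-0.91, adjusted p = 0.295).

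In vehicle mice Foxo6os had more reads than Foxo6, with a ratio of counts of 2.88 ± 0.566 in males and 3.10 ± 0.706 in females (SD, n = 6 each). With corticosterone this ratio of counts was 0.984 ± 0.378 in males (SD, n = 6) and 2.94 ± 1.03 in females (SD, n = 5). In males Foxo6os thus fell further than Foxo6, with a shift of the log2 ratio Foxo6 over Foxo6os of 1.60 (exact permutation test, two-sided, adjusted p = 0.00432 over 20 tests), and no treated male overlapped a vehicle male. In females the shift was 0.18 (exact permutation test, p = 0.506). The male shift exceeded the female shift by 1.42, which an exact permutation test gave p = 0.0131, and 0.131 after adjustment over 10 pairs.

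**Figure D3:**
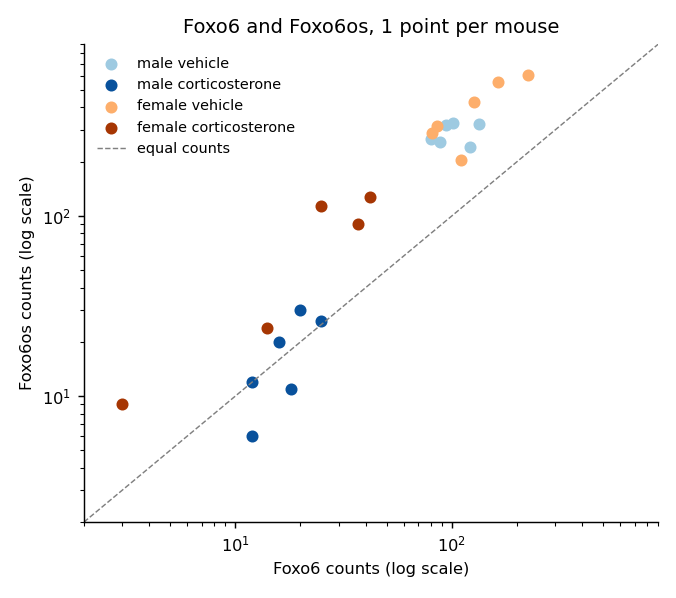
Counts of Foxo6 (horizontal, log scale) and Foxo6os (vertical, log scale), 1 point per mouse in the 4 groups, with a dashed line at equal counts. Vehicle mice of both sexes and treated females lie above the line, while the treated males lie about it with ratios between 0.5 and 1.5.

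Over the 23 mice, Foxo6 and Foxo6os had the highest correlation of any pair of the 5 genes (Pearson r of log2 CPM 0.944, and 0.882 once each group's mean was taken out). F6 had the lowest level of both genes and F8 the highest among treated females. The correlation of Foxo1 and Foxo3 was 0.899, and 0.402 without group means, and Foxo1 and Foxo6os ran opposite at -0.942, and -0.668 without group means. Foxo4 had weaker correlations with the others, from -0.455 with Foxo6os to 0.659 with Foxo3. These are descriptions over mice that share their treatment groups and library scaling.

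Set per length, as CPM per kb of exon, Foxo4 was by far the most abundant FoxO transcript. In vehicle males the order was Foxo4 (47.2 ± 5.58), Foxo6os (6.02 ± 0.866), Foxo3 (3.28 ± 0.197), Foxo1 (1.95 ± 0.175) and Foxo6 (1.88 ± 0.369, all SD, n = 6), and the levels of Foxo1 and Foxo6 overlapped between mice while other neighbours in this order did not. In treated males it was Foxo4 (69.6 ± 4.98), Foxo1 (12.3 ± 1.11), Foxo3 (9.56 ± 1.73), Foxo6os (0.374 ± 0.187) and Foxo6 (0.324 ± 0.0892, all SD, n = 6), where Foxo1 overlapped Foxo3 and Foxo6os overlapped Foxo6. The mean of Foxo1 thus passed those of Foxo6os and Foxo3.

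Vehicle females had the order of vehicle males, with Foxo4 at 53.8 ± 8.58, Foxo6os at 7.985 ± 3.082, Foxo3 at 4.92 ± 0.784, Foxo1 at 2.31 ± 0.326 and Foxo6 at 2.29 ± 0.906 CPM per kb (SD, n = 6), and here Foxo6os also overlapped Foxo3. Treated females had Foxo4 at 48.4 ± 6.62, Foxo1 at 7.52 ± 3.62, Foxo3 at 7.07 ± 1.24, Foxo6os at 1.46 ± 1.14 and Foxo6 at 0.421 ± 0.287 CPM per kb (SD, n = 5), with overlap within the Foxo1 and Foxo3 pair and within the Foxo6os and Foxo6 pair.

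**Figure D4:**
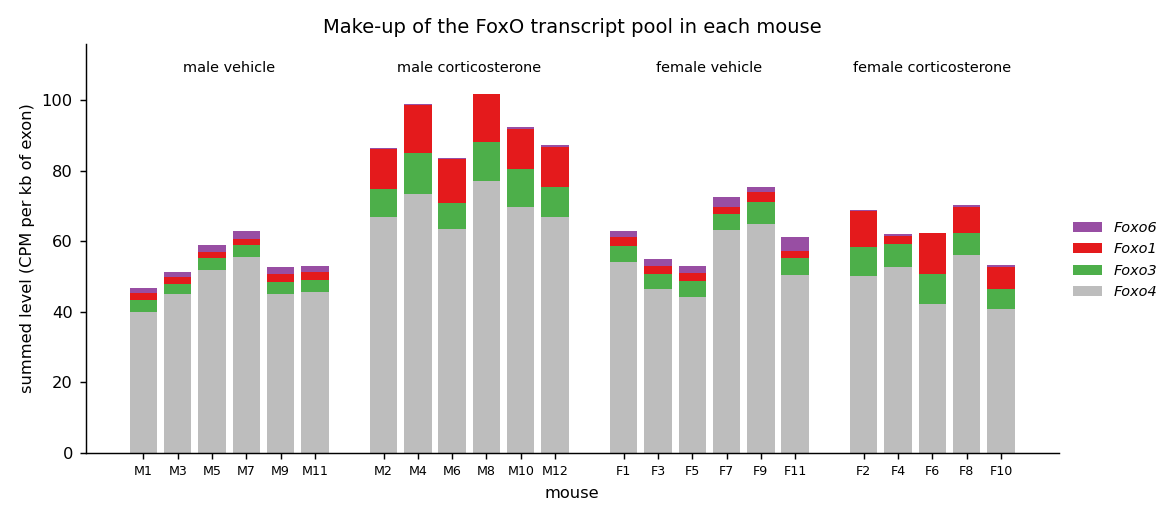
Summed level of the 4 FoxO protein genes in each mouse (vertical axis, CPM per kb of exon, from 0), split by gene, with mice on the horizontal axis in 4 groups. The treated males stand between 83.8 and 101.9, above every other mouse, and Foxo1 and Foxo3 take a larger share of the bar in treated mice of both sexes, except Foxo1 in F4.

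The sum of the 4 FoxO protein genes was 54.3 ± 5.77 CPM per kb in vehicle males and 91.8 ± 7.35 in treated males (SD, n = 6 each), with no overlap, but 63.3 ± 9.16 in vehicle females (SD, n = 6) and 63.4 ± 6.78 in treated females (SD, n = 5). The make-up of this sum moved in both sexes. The share of Foxo4 was 86.8% ± 1.34 in vehicle males, 75.8% ± 1.11 in treated males, 84.8% ± 1.74 in vehicle females and 76.3% ± 6.53 in treated females (SD). The share of Foxo1 was 3.64% ± 0.547 and 13.5% ± 0.865 in vehicle and treated males and 3.70% ± 0.647 and 11.8% ± 5.53 in vehicle and treated females, with 3.86% in F4 and 18.8% in F6. The share of Foxo6 went from 3.44% ± 0.466 to 0.356% ± 0.105 in males and from 3.67% ± 1.48 to 0.670% ± 0.451 in females (SD).

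The ratio of 2 genes within a library does not depend on how libraries are scaled. All 10 pairs of the 5 genes shifted in males and 9 of 10 in females by an exact two-sided permutation test, adjusted over the 20 tests, at a threshold of 0.05. In males a pair of a gene that rose and a gene that fell had to shift, since neither overlapped between treatments. The pairs also share genes, so that the number of shifts is no further evidence. The smallest p possible is 0.00216 in males and 0.00433 in females. Foxo1 rose more than Foxo3 in both sexes, by 1.13 on the log2 scale in males (exact permutation test, adjusted p = 0.00432) and by 1.01 in females (adjusted p = 0.0319), and the level of Foxo1 per kb went from 0.596 ± 0.0550 to 1.32 ± 0.206 of that of Foxo3 in males and from 0.477 ± 0.0799 to 1.04 ± 0.393 in females (SD). Foxo3 gained on Foxo4 by 0.96 in males (exact permutation test, adjusted p = 0.00432) and 0.67 in females (adjusted p = 0.00509). The female shift of Foxo1 over Foxo3 missed the threshold without F6 (0.87, exact permutation test, adjusted p = 0.0702) and in each of the 9 other fits that left out a female other than F4 (adjusted p = 0.0501 or 0.0702), and was 1.35 without F4. None of the 10 pairs differed between the sexes in its shift after adjustment (smallest adjusted p = 0.131, exact permutation test), a test added after the data were seen.

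Of 40 other forkhead genes, 11 were expressed enough to be tested. Of these, 18.2% were called in males and 9.09% in females, below the 26.3% and 13.4% of all genes. In males Foxk1, a forkhead factor known to repress autophagy genes, rose (log2FC 0.71, SE 0.13, edgeR adjusted p = 0.000256) and Foxn3 fell (-0.43, SE 0.09, edgeR adjusted p = 0.0009), and in females Foxn3 fell (-0.46, SE 0.10, edgeR adjusted p = 0.00165). The range over the 11 genes was -0.46 to 0.71 in males and -0.53 to 0.68 in females, so that in males Foxo1, Foxo3, Foxo6 and Foxo6os, and in females Foxo1, Foxo6 and Foxo6os, lay outside it.

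Genes that carry the insulin signal to FoxO proteins showed 5 higher and 2 lower of 24 tested in males (25 listed) and 3 higher and 1 lower in females. These shares, 29.2% and 16.7%, were near those of all genes, 26.3% and 13.4%. The median log2FC was 0.03 in males, against -0.02 over all genes tested, and 0.01 in females, against 0.04. The median of the list was thus near that of all genes, and its largest change was Pik3r1, the regulatory subunit of PI3K. Pik3r1 was at 23.8 to 33.0 CPM in vehicle males and 181.8 to 342.9 CPM in treated males (log2FC 3.06, SE 0.23, edgeR adjusted p = 9.22e-09), and at 26.6 to 38.2 CPM in vehicle females and 63.2 CPM (F4), 112.4 CPM (F10), 156.2 CPM (F8), 193.3 CPM (F6) and 227.0 CPM (F2) in treated females (log2FC 2.21, SE 0.23, edgeR adjusted p = 2.2e-06). Neither sex overlapped, and F4 was the lowest treated female, as it was for Foxo1.

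Of the other insulin pathway genes, Akt2, the Akt kinase of insulin-responsive tissues, rose in males (log2FC 0.71, SE 0.13, edgeR adjusted p = 0.000135), as did Mtor (0.46), Sgk1 (1.55), an Akt-like kinase that also phosphorylates FoxO proteins, and Insr, the insulin receptor (0.35). Inppl1, a lipid phosphatase that opposes PI3K, fell in males (-0.61) and in females (-0.49). Irs1 was the other gene lower in males (-1.46), and its -0.82 in females did not pass the threshold. In females Pik3cb, a catalytic PI3K subunit, rose by 0.68 and Mtor by 0.26. Pik3cb was at 23.84 CPM (F6), 15.98 CPM (F10), 14.82 CPM (F2), 11.61 CPM (F4) and 10.48 CPM (F8), against 8.04 to 10.92 CPM in vehicle females. F2, F6 and F10 had the highest adipocyte markers, 3309 to 6959 CPM, whose part in this rise was not tested. Akt1 had a log2FC of -0.09 in males and -0.26 in females and Irs2 0.14 and -0.16, none past the threshold. The response differed between the sexes for 0 of 24 genes by edgeR, DESeq2 and limma-voom, with 10 at an unadjusted p under 0.05.

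Of 36 tested genes that modify FoxO proteins or carry them between nucleus and cytoplasm (37 listed), 3 were higher and 3 lower in males and 2 higher and 4 lower in females. The 6 of 36 genes, 16.7%, stood against 26.3% of all genes called in males and 13.4% in females, below the share of all genes in males and near it in females. The median was 0.07 in males and -0.01 in females. In males the deacetylases Sirt2 (log2FC 0.56) and Sirt1 (0.43) and the acetyltransferase Kat2b (0.49) rose, and Sirt3 (-0.81), Cdk2 (-0.78) and the stress kinase Mapk8 (-0.36) fell. In females the 14-3-3 genes Ywhaq (0.85) and Ywhab rose, and Prmt1 (-0.64), an arginine methyltransferase of FoxO1, Mapk8 (-0.50), the deubiquitinase Usp7 (-0.29) and Nlk fell. Mapk8 was thus lower in both sexes. Ywhaq was at 33.15 CPM (F2), 49.26 CPM (F6) and 37.83 CPM (F10), above the 13.1 to 21.7 CPM of vehicle females, but at 16.81 CPM in F4 and 16.78 CPM in F8, within that range. F2, F6 and F10 were also the mice with the highest adipocyte markers, 3309 to 6959 CPM, whose part in the rise was not tested.

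**Figure D5:**
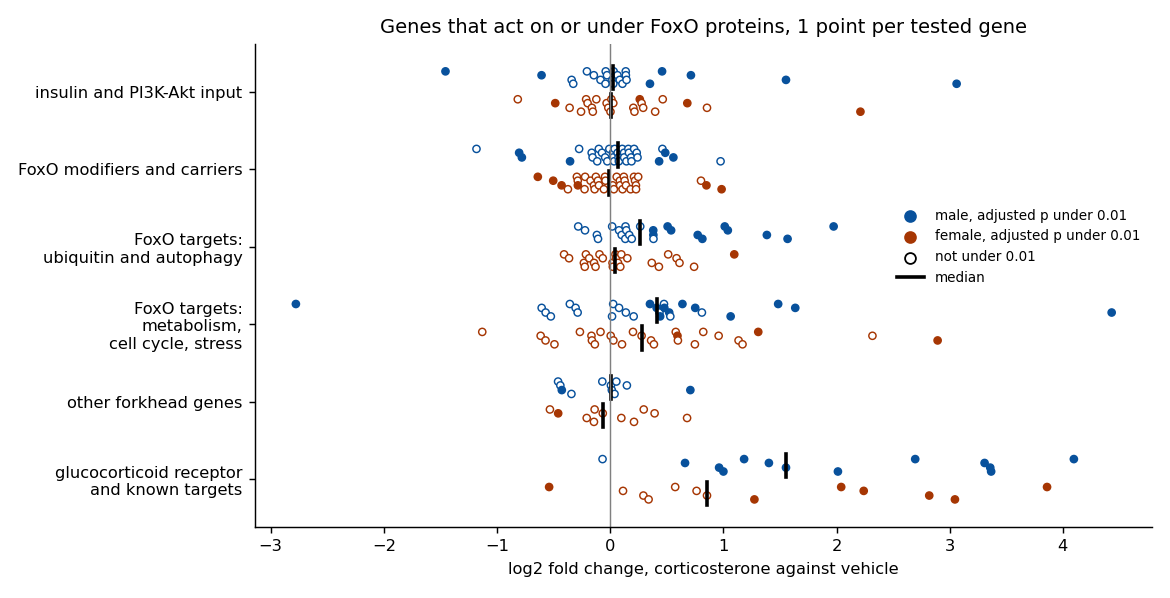
Log2 fold change, corticosterone against vehicle (horizontal axis), of the tested genes of 6 lists, males in blue and females in orange, 1 point per gene, filled where the adjusted p was under 0.01, with a bar at the median. In males the medians of the FoxO target lists stand at 0.26 and 0.41, and in females at 0.05 and 0.28.

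Known FoxO targets of the ubiquitin and autophagy systems were higher in males for 11 of 25 genes and lower for 0 (edgeR, where 13.2% of all genes were higher), with a median log2FC of 0.26. DESeq2 gave 13 higher and 0 lower and limma-voom 13 and 1, and 1 gene was lower at an unadjusted p under 0.05. In females 1 of 25 was higher, Map1lc3a, an LC3 protein of the autophagosome, and 0 were lower (7.40% of all genes were higher), with a median of 0.05. DESeq2 and limma-voom each gave 2 higher and 2 lower in females, and 6 were higher and 4 lower at an unadjusted p under 0.05. Trim63 was at 361.8 to 494.5 CPM in vehicle males and 888.3 to 2275 CPM in treated males (log2FC 1.97, SE 0.31, edgeR adjusted p = 3.53e-05), while vehicle females (260.8 to 729.0 CPM) and treated females (247.6 to 1062 CPM) overlapped (0.43, SE 0.31, edgeR adjusted p = 0.321). Fbxo32 was at 461.4 to 966.0 CPM and 1271 to 2624 CPM in vehicle and treated males (log2FC 1.57, SE 0.33, edgeR adjusted p = 0.000789), and at 209.0 to 711.8 CPM and 317.3 to 1078 CPM in vehicle and treated females (0.74, SE 0.34, edgeR adjusted p = 0.11). The female values of both genes overlapped between treatments. F4, the treated female with the lowest Foxo1, was level with F2 for Fbxo32 (1078 and 1077 CPM) and lay within the vehicle females for Trim63 (568.9 CPM). The responses of Trim63 and Fbxo32 did not differ past the threshold between the sexes (1.54, edgeR adjusted p = 0.028, and 0.83, edgeR adjusted p = 0.231).

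Map1lc3a rose in males (log2FC 1.38, SE 0.17) and in females (1.10, SE 0.17, edgeR adjusted p = 2.01e-06 and 0.000153), and Map1lc3b rose in males (0.77, edgeR adjusted p = 4.99e-06) with 0.15 in females. Gabarapl1 (0.13 in males, 0.51 in females) and the mitophagy receptor Bnip3 (0.38 and 0.37) did not pass in either sex. The genes of this list whose response differed between the sexes were Fbxo31, an F-box protein of a ubiquitin ligase, with 1.01 in males and 0.02 in females (difference 0.99, edgeR adjusted p = 0.00607), and Tfeb, a transcription factor of lysosome and autophagy genes, with 1.04 and -0.13 (difference 1.17, edgeR adjusted p = 0.00806), 2 of 25 where 0.690% of all genes passed. The number ranged from 0 to 6 over 30 alternatives, with 6 by DESeq2 and 3 by limma-voom, and Fbxo31 passed in 16 of the 30 and Tfeb in 11.

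Known FoxO targets of metabolism, cell cycle and stress were higher in males for 11 and lower for 1 of 27 tested genes (30 listed), with a median log2FC of 0.41, and higher in females for 3 and lower for 0, with a median of 0.28. The share higher was 40.7% in males, where 13.2% of all genes were, and 11.1% in females, near the 7.40% of all genes. For females DESeq2 and limma-voom each gave 5 higher and 1 lower, and 14 were higher and 3 lower at an unadjusted p under 0.05. The share of all genes at this p was not counted. Cdkn1a, the cell cycle inhibitor p21, was at 9.46 to 14.01 CPM in vehicle males and 192.3 to 329.4 CPM in treated males (log2FC 4.43, SE 0.26, edgeR adjusted p = 3.73e-10), and at 14.6 to 41.1 CPM and 120.0 to 245.1 CPM in vehicle and treated females (2.89, SE 0.24, edgeR adjusted p = 6.61e-07). Neither sex overlapped, and F4, at 187.1 CPM, had the second highest Cdkn1a of the treated females. Eif4ebp1, a brake on translation, rose in males (1.48, SE 0.24, edgeR adjusted p = 4.42e-05) and had 0.82 in females (edgeR adjusted p = 0.0155), and Txnip, an inhibitor of glucose uptake, rose in both (0.48 and 0.59). Ccnd1, the cyclin D1 gene that FoxO factors are known to repress, fell in males (-2.78, SE 0.37, edgeR adjusted p = 5.35e-06) and had -1.13 in females (edgeR adjusted p = 0.0217). Cdkn2b rose in females (1.31, edgeR adjusted p = 0.0037) from low levels, 1.38 ± 0.372 CPM (SD, n = 6) to 3.42 ± 1.94 CPM (SD, n = 5). F2, F6 and F10 were at 4.69 to 5.002 CPM, above all vehicle females, while F4 and F8 (1.204 and 1.378 CPM) lay in the vehicle range. The same 3 mice had the highest summed adipocyte markers, 3309 to 6959 CPM against 1102 CPM in F4 and 274.4 CPM in F8, and the part of these markers was not tested.

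Sesn1, a stress-induced inhibitor of mTORC1 signaling, was at 26.6 to 34.1 CPM in vehicle males and 73.1 to 130.6 CPM in treated males (log2FC 1.64, SE 0.17, edgeR adjusted p = 3.9e-07), but at 41.7 to 89.9 CPM and 51.4 to 67.0 CPM in vehicle and treated females (0.03, SE 0.18, edgeR adjusted p = 0.924). The difference was 1.61 (edgeR adjusted p = 0.00385). As with Foxo3, vehicle males lay below all vehicle females. Gadd45a, a stress gene named after its values were seen, was the other gene of the list whose response differed, with 1.06 in males and -0.57 in females (difference 1.64, edgeR adjusted p = 0.0083), of which the male value passed. Over the 30 alternatives, Sesn1 passed in 27 and Gadd45a in 11.

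Of 13 genes of the glucocorticoid receptor list (the receptor gene and 12 known targets), 12 were higher in males and 6 in females, and 1 was lower in females. The share higher was 92.3% in males and 46.2% in females, where 13.2% and 7.40% of all genes were. The lower gene was Nr3c1, the receptor itself (log2FC -0.54, SE 0.13, edgeR adjusted p = 0.00442), which had -0.07 in males (edgeR adjusted p = 0.688). Fkbp5 rose by 3.36 in males and 3.05 in females, and Mt2, a metallothionein, by 4.10 and 3.86. For Fkbp5 the difference between the sexes was 0.31 (95% interval -0.47 to 1.10, edgeR adjusted p = 0.618). Over the 13 genes the median of this difference was 0.55, against -0.05 over all genes tested, with the highest values in Cebpd (1.27), Ddit4 (1.13) and Per1 (1.11), none past the threshold. The response differed between the sexes for 0 of the 13 genes by edgeR and limma-voom and for 2 by DESeq2, with 5 at an unadjusted p under 0.05. The shares of all genes by DESeq2 and at this p were not counted. In males 0 of the 13 genes were lower by any of the 3 tools or at an unadjusted p under 0.05.

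Across the 23 mice, the tested genes whose log2 CPM was most like Foxo1 were Pik3r1 (Pearson r 0.978, and 0.819 once group means were taken out), Gm11827 (0.963), Rhob (0.962), 4930481A15Rik (0.958) and Glra3 (0.958). For Foxo3 they were Usp46 (0.958), Gle1 (0.956), Gng2 (0.944), Yipf3 (0.942) and Zfp882 (0.938). Usp46, a deubiquitinase gene, had nearly the same log2FC as Foxo3, 1.54 in males and 0.53 in females. For Foxo4 they were AU022252 (0.933), Kat2b (0.933), Ipo7 (0.930), Ktn1 (0.923) and Slc4a1ap (0.921), and their correlations without group means stayed between 0.811 and 0.869.

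For Foxo6 the most alike was Foxo6os, followed by Fhod3 (0.941), Slc9a2 (0.932), Parvb (0.928) and Pde4a (0.920), and for Foxo6os they were Aig1 (0.953), Bag2 (0.949), Foxo6 (0.944), AC122818.4 (0.943) and Nrep (0.939). With n = 23 mice in 4 groups, these values describe in part a shared order of the groups. Once group means were taken out they lay between 0.426 (Foxo3 with Zfp882) and 0.882 (Foxo6 with Foxo6os).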

How the data were processed

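RNA of whole quadriceps from 23 mice was sequenced, and the authors aligned read pairs to mm10 with STAR 2.7.3a, counted them per gene and strand with HTSeq 0.12.4 and deposited these counts without normalization. Summary entries for unassigned reads (10.7% to 15.3% per mouse) were left out. Genes were named from GENCODE M21 (55480 of 55573 IDs). Replicates differed beyond sampling noise.

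Counts were tested in R 4.3.3 with edgeR 4.0.16 (quasi-likelihood, TMM factors from 0.832 to 1.208) in 1 model of the 4 groups, over the 13049 genes whose normalized counts exceeded 20 in 4 or more mice of a group, with Benjamini-Hochberg adjustment and a threshold of 0.01. SEs were derived from the fold change and its F statistic. Alternatives used DESeq2 1.42.0, limma 3.58.1, other filters and scaling, each sex alone and fits without single mice. CPM per kb used the union of exons. Log2 ratios (1 count added) were compared by exact permutation tests in SciPy 1.17.1. For each list, at most 4 genes per sex with the smallest p were named, plus preset genes, and for each member the 5 most correlated genes. Scripts were tested on simulated data. The members and lists were chosen with earlier results of these data known. Whether the sexes were processed together is not given in the sources used here, so that a batch of this kind and sex cannot be told apart. Labels do not give separate housing or litters. Muscle weights and strength were not analysed here.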

Additional observations from a re-analysis of the deposited data

Results flagged for a closer look

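The response to corticosterone differed between the sexes by a test of the difference itself for Foxo3 (male minus female log2FC 1.02, edgeR adjusted p = 0.00607), Fbxo31 (0.99, adjusted p = 0.00607), Tfeb (1.17, adjusted p = 0.00806), Sesn1 (1.61, adjusted p = 0.00385) and Gadd45a (1.64, adjusted p = 0.0083). In Foxo3 both sexes rose, while the female log2FC was 0.02 for Fbxo31, -0.13 for Tfeb, 0.03 for Sesn1 and -0.57 for Gadd45a, none past the threshold. Of 30 alternatives, the difference passed in 19 for Foxo3, 16 for Fbxo31, 11 for Tfeb, 27 for Sesn1 and 11 for Gadd45a, so that which genes passed depended on the setting.

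A single mouse stood apart from its group, by a gap test at the 95% level, in 8 of 184 groups of values, and chance gives about 1 in 20. None of the FoxO genes was among them. Mtor was at 33.2 CPM in F7, against 37.1 to 39.0 CPM in the other vehicle females. Mapk8 was at 27.7 CPM in M1, against 33.3 to 35.7 CPM in the other vehicle males. Cdkn2b was at 3.34 CPM in M9, against 1.92 to 2.15 CPM in the other vehicle males, and at 1.1 CPM in M6, against 1.52 to 1.72 CPM in the other treated males. Foxk1 was at 36.4 CPM and Akt1 at 47.3 CPM in F9, against 23.6 to 27.8 CPM and 57.4 to 61.7 CPM in the other vehicle females. Foxn3 was at 61.7 CPM in M6, against 71.3 to 76.7 CPM, and Irs2 at 42.2 CPM in M8, a mouse with high hepatocyte markers, against 20.2 to 27.9 CPM in the other treated males.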

How the results depend on the processing

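Of 1000 comparisons of a value with an alternative, 927 stayed on their side of the threshold, 55 fell below it, 18 passed it and 0 turned sign with a call. In males all 5 FoxO calls stood under the 30 alternatives run, as did those of Foxo1 and Foxo6 in females. For the calls that moved, the cause was not tested. With DESeq2 the Foxo4 difference in response (0.73), and Foxo1 (0.74) and Foxo3 (0.46) between treated males and females, passed. With limma-voom the Foxo4 difference in response (0.69) passed and Foxo6os between treated males and females (-0.91) did not. With every gene of at least 1 count, Foxo3 in females (0.48) and between vehicle males and females (-0.58) no longer passed and Foxo3 between treated males and females (0.49) did. With filterByExpr these sex differences of Foxo3 were -0.58, no longer past the threshold, and 0.45, now past it. With median-of-ratios scaling the latter was 0.46 and passed. With each sex fitted alone, Foxo3 (0.50) and Foxo6os (-2.47) in females no longer passed. Without M8 and F10, Foxo3 in the difference in response (0.93), and Foxo4 (0.46) and Foxo6os (-1.71) between treated males and females, no longer passed.

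Leaving out 1 mouse at a time gave Foxo3 in females 0.44 (without F6) to 0.61, the difference in response 0.93 to 1.11 for Foxo3 and 0.65 to 0.77 for Foxo4 (past the threshold without F3, F4, F5 or F8), and vehicle males against females -0.63 to -0.49 for Foxo3. Treated males against females gave 0.49 to 0.95 for Foxo1 (past the threshold without F4 or F6), 0.37 to 0.53 for Foxo3 (past it without F2, F6, F9, M2 or M6) and -2.23 to -1.59 for Foxo6os. The log2 ratio of Foxo1 over Foxo3 in females gave 0.87 to 1.35. Adding 0.5 counts in place of 1 changed no call of a ratio.

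Mouse numbers are shared by a male and a female of 1 treatment. Their deviations from the group means correlated at 0.085 to 0.477 over 6 vehicle pairs and at -0.377 to 0.242 over 5 treated pairs, so that the numbers were not taken as a pairing. With a replicate block on them, the Foxo3 difference in response was 1.04 (edgeR, adjusted p = 0.0149), Foxo6os between treated males and females -1.75 (adjusted p = 0.0399) and Foxo3 between vehicle males and females -0.57 (adjusted p = 0.0512), none past the threshold. No block could be made for corticosterone against vehicle, since no number occurs in both.

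The counts of list genes moved with the setting in both sexes and, except for the insulin pathway genes, in the difference between the sexes. Over the 30 alternatives, ubiquitin and autophagy targets higher in males numbered 9 to 13 and in females 1 to 3, with 0 to 6 differing in response. Metabolism, cell cycle and stress targets numbered 7 to 12 and 1 to 6, with 0 to 3 differing, insulin pathway genes 4 to 5 and 1 to 4, and modifiers 2 to 4 and 0 to 3. With the longest transcript as length, Foxo3 in vehicle males was 3.63 CPM per kb in place of 3.28. Low counts of Foxo6 and Foxo6os in treated mice (as few as 3 and 6) limit their fold changes.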
